A study of Mus musculus with 61 samples.

Results

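Liver RNA of B6 mice was set against liver RNA of PWK mice across every gene of the count table. The libraries were chosen by the strain named in their titles, which gave 7 B6 libraries and 8 PWK libraries of the 60 analysed, and 16165 of the 18754 genes in the table had enough reads to be tested. Both strains are among the 8 inbred founders of the Diversity Outbred mice, a population used for genetic mapping. Both groups ate a diet rich in fat and sugar, so the strains are compared on that diet, and no group on ordinary chow was analysed here. Each library held polyadenylated RNA of frozen liver. The labels give neither sex nor age, name no transgene or drug, and leave unsaid whether each library came from its own animal. The p-values measure only the spread among these libraries, which may be technical in part. The sample numbered 5 of B6 was not analysed here.

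B6, the common laboratory strain C57BL/6J, is the strain from which the mouse reference genome was built. PWK, or PWK/PhJ, was derived from wild mice of the subspecies Mus musculus musculus, and its genome differs from the reference at many more sites than those of classical inbred strains do. The liver takes up, makes and oxidises fat, converts cholesterol to bile acids, detoxifies drugs and secretes most plasma proteins, and it houses resident macrophages called Kupffer cells. Fat-loaded hepatocytes store triglyceride in lipid droplets, whose coat proteins are controlled in part by the nuclear receptor PPARγ, whereas PPARα drives the burning of fatty acids.

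Depth was alike in the strains, with library totals of 19.98 to 38.2 M reads in B6 and 25.1 to 36.6 M reads in PWK. Mitochondrial genes took 6.93 ± 0.70% of reads in B6 and 5.54 ± 0.63% in PWK (SD, n = 7 and 8), which differed in an exact permutation test over 6435 assignments of the libraries (two-sided p = 0.00342, adjusted p = 0.0137 over 4 library measures). This share leaves out rows of nuclear copies, such as those of mt-Co2 and mt-Nd4l described below, and their part in the difference was not tested. Of the other 3 measures, the number of genes with a read also differed (17943 ± 234 in B6 and 17620 ± 223 in PWK, adjusted p = 0.0361), while the total and the share of Rn18s-rs5 did not pass the same test. Xist, which coats the inactive X chromosome, was high in 4 B6 libraries (830 to 1113 CPM, counts-per-million units) and low in the other 3 (0.246 to 7.34 CPM). It was likewise high in 4 PWK libraries (852 to 1292 CPM) and low in the other 4 (1.83 to 8.90 CPM). The model pooled both kinds. Alb, the gene of serum albumin, had 60592 ± 7015 CPM in B6 and 57813 ± 18662 CPM in PWK, and of 15 hepatocyte markers 1 was higher and 2 were lower in B6. Of 11 pancreatic marker genes only 1, Cela2a, was among the genes counted, and it had too few reads to be tested. It had at most 0.246 CPM in B6 and 0 CPM in PWK. The other pancreatic markers could not be looked at.

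A few libraries carried traces of genes that were otherwise almost private to the other strain. Over 59 genes at least 32-fold lower in B6, with no near-identical copy, the median level in B6 2 was 1.46% of the PWK mean and in B6 8 it was 0.751%, against 0.0442 to 0.378% in the other 5 B6 libraries. Over 97 such genes higher in B6, PWK 9 stood at 0.903% of the B6 mean and PWK 7 at 0.132%, while the median was 0 in each of the other 6 PWK libraries. This measure was chosen after the values were seen, and its origin was not tested. It touches the size of extreme folds. Where leaving out a single library moved a printed fold change of a single row by more than 1.5-fold, the value without that library is given beside it.

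Strain set the main axis of variation, as the plot of principal components shows. The first component took 53.7% of the variance of the 15 libraries and placed all 7 B6 libraries apart from all 8 PWK libraries. The second took 16.8% and placed the high-Xist libraries of both strains above the low-Xist ones.

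**Figure D1:**
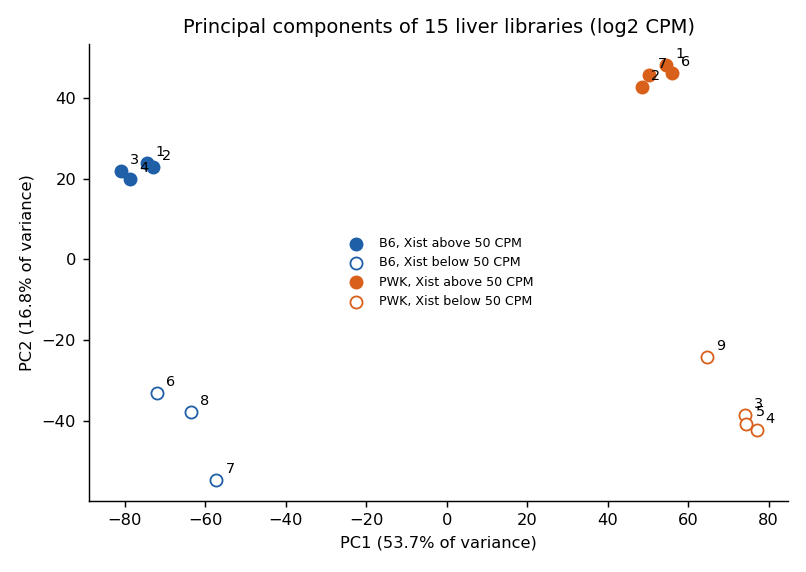
Principal components of log2 CPM over the 15 libraries, with the first component (53.7% of variance) on the horizontal axis and the second (16.8%) on the vertical axis; numbers are the labels' replicate numbers. Blue B6 points lie left and orange PWK points right, and filled points (high Xist) lie above open points (low Xist) in both strains.

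With edgeR's quasi-likelihood F test and a Benjamini-Hochberg adjusted p below 0.05, 6978 of the 16165 tested genes differed between B6 and PWK (43.2%). Of these, 3724 genes (23% of those tested) were higher and 3254 genes (20.1%) were lower in B6. These shares are the background for the counts of each gene list below. A change of at least 2-fold was seen for 2788 genes (17.2%), of which 1731 (10.7%) were higher and 1057 (6.54%) lower in B6. The split was thus nearly even over all calls (53.4% higher in B6) and less even among the 2-fold calls (62.1% higher in B6), while the median log2 fold change of all tested genes was 0.02. The libraries of the strains did not overlap at all for 2984 genes (18.5%). Among the 28 pairs of the 8 strains, B6 against PWK ranked 12th by the number of called genes. Spread within a strain was alike, with a median SD of 0.268 in B6 and 0.266 in PWK on the log2 scale.

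Set among all 8 strains, ordered here and throughout by their mean log2(CPM + 0.1), these differences were more often extremes of PWK than of B6. Of the 2788 genes called with at least 2-fold, PWK alone had the highest or lowest mean of the 8 strains in 1106 (39.7%), against 26.1% of all tested genes. B6 alone was the extreme strain in 573 (20.6%, against 18.6% of all tested genes). Both were at opposite ends in 294 (10.5%, against 3.53% of all tested genes). The choice of genes that differ between B6 and PWK favours extremes in both strains, so these shares are a description.

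Over the autosomes and the X chromosome, called genes made up from 38.2% of tested genes on X to 46.7% on chromosome 4, and on Y they were 3 of 10. Of 15 tested genes of the mitochondrial genome, 9 were higher and 0 were lower in B6, but for mt-Co2 and mt-Nd4l the call was lost when rows of nuclear copies were added to them.

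**Figure D2:**
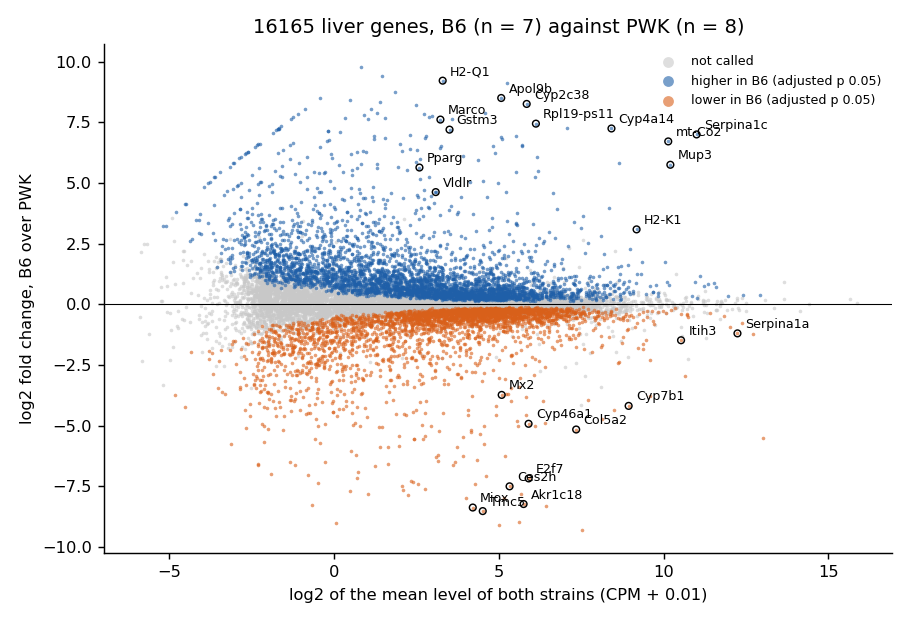
Mean level over both strains (log2 CPM, horizontal axis) and log2 fold change of B6 over PWK (vertical axis) for the 16165 tested genes, blue where higher and orange where lower in B6 at an adjusted p below 0.05. Labelled genes other than Serpina1a are described in the text, and large folds occur in both directions and over a wide range of levels.

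Many of the largest folds belonged to genes with a near-identical partner among the other genes counted. A partner was counted where 2 genes' longest transcripts in the GENCODE annotation matched at 95% identity or more over at least 50% of the shorter one. Only 18684 transcripts of genes in the count table were compared, so copies outside it were not looked for. Genes that overlap on a chromosome were not taken as partners. Such a partner was held by 5.43% of all tested genes and by 3.37% of genes called with less than 2-fold. The share was 6.22% from 2-fold to under 4-fold, 14.3% from 4-fold to under 16-fold, 18.1% from 16-fold to under 64-fold and 31.9% (43 of 135) from 64-fold upwards. Of the 339 genes called with at least 16-fold (2.1% of those tested), 80 had a partner, and in 40 of these a partner was called in the opposite direction. Genes without a partner were called at 42.8% (6537 of 15287).

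Rpl19, a protein of the large ribosomal subunit, and its processed pseudogene Rpl19-ps11 illustrate this, and their sequences are shown because their aligned parts differ at a single base. Rpl19 (chr11) and Rpl19-ps11 (chr8) matched at 590 of 591 aligned bases, which span the whole coding sequence. The longest Rpl19 transcript has 751 bases, so part of it lies outside the alignment. The differing base lies in the stretch below (GENCODE transcripts on GRCm38, plus strand, chr11:98028394-98028454 and chr8:19493096-19493156, coding bases 161 to 221), where it stands in capitals and is G31A, gene base first and counted from 1 at the left end.
Rpl19: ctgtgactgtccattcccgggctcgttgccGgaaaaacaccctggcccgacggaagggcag
Rpl19-ps11: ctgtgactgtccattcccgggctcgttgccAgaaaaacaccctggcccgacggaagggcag
The row of Rpl19 had 8.11 to 12.8 CPM in B6 (median 9.31) and 137 to 172 CPM in PWK (median 147). The row of Rpl19-ps11 showed the reverse, with 125 to 150 CPM in B6 (median 143) and 0.0787 to 2.85 CPM in PWK (median 0.471). Neither pair of groups overlapped. The log2 fold change of Rpl19-ps11 was 7.45, and 8.09 without PWK 9. Summed over the 4 linked rows, the level was 147 ± 10.8 CPM in B6 and 152 ± 13.9 CPM in PWK, and the log2 fold change of -0.05 ± 0.06 (SE) did not pass the test (adjusted p = 0.557).

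The same held for several other ribosomal proteins. Rpl27 had 5.52 ± 0.749 CPM in B6 and 72.2 ± 6.03 CPM in PWK, its pseudogene Rpl27-ps3 had 67.0 ± 4.99 and 0.561 ± 0.775 CPM, and the sum of the pair differed by -0.02 ± 0.08 on the log2 scale (adjusted p = 0.844). The log2 fold change of Rpl27-ps3 was 6.91, and 7.68 without PWK 9. Rpl17 had 4.08 ± 1.09 CPM in B6 and 134 ± 7.73 CPM in PWK, with a log2 fold change of 0.07 ± 0.07 for its group of 5 linked rows (adjusted p = 0.442). Over the whole family of 114 tested genes of cytosolic ribosomal proteins and their pseudogenes, 15 were higher and 24 lower in B6, with a median log2 fold change of -0.03. The share called in the family was 34.2%, against 43.2% of all tested genes. For the mitochondrial gene mt-Co2, a subunit of cytochrome c oxidase, the table listed 1655 to 2561 CPM in B6 (median 2260) and 7.55 to 62.4 CPM in PWK (median 13.7). Its nuclear copy Gm28661, chosen after its values were seen, had 3038 ± 531 CPM in B6 and 4272 ± 592 CPM in PWK. Their group sum was 5218 ± 793 CPM in B6 and 4312 ± 601 CPM in PWK (log2 fold change 0.28 ± 0.12, adjusted p = 0.0519). mt-Nd4l, a subunit of complex I, had 785 ± 146 CPM in B6 and 13.99 ± 5.79 CPM in PWK, and its sum with the nuclear copy Gm10222 was 1041 ± 199 CPM in B6 and 953 ± 151 CPM in PWK (log2 fold change 0.13 ± 0.14, adjusted p = 0.471). Both were named after their values were seen. In the globin pair, Hba-a1 was lower (0.538 ± 0.435 CPM in B6, 170 ± 40.5 CPM in PWK) and Hba-a2 higher in B6 (138 ± 36.6 and 23.9 ± 8.37 CPM), with a log2 fold change of -0.51 ± 0.24 for the sum (adjusted p = 0.0754). How the authors shared reads among such rows is not given in the sources used here. The sums were added after the values were seen.

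**Figure D3:**
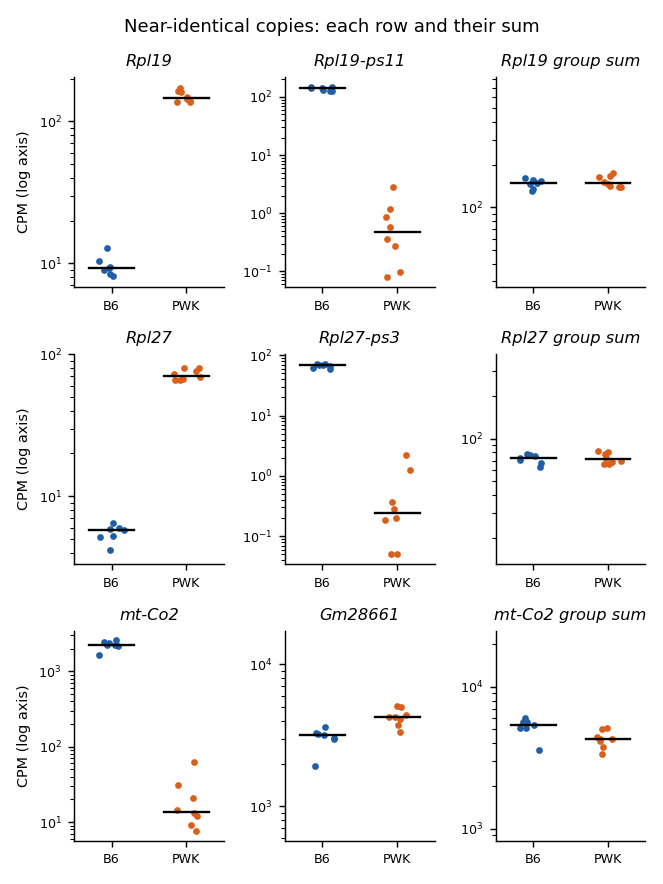
Level of each row (CPM, log axis) in every B6 library (blue, left) and PWK library (orange, right) for 3 pairs of near-identical genes and for the sum of their group; black lines are medians, and libraries below 0.05 CPM are drawn at 0.05. The single rows lie apart except those of Gm28661, which overlap. The sums of the Rpl19 and Rpl27 groups lie in the same range in both strains.

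Genes without such a partner also reached extreme folds, and several were close to silent in a strain. H2-Q1, a non-classical class I histocompatibility gene (chr17:35320405-35325099), had 11.5 to 33.4 CPM in B6 (median 18.7) and 0 to 0.102 CPM in PWK (median 0.0130). Apol9b, an interferon-induced apolipoprotein L gene, had 42.2 to 108 CPM in B6 and 0.0332 to 0.475 CPM in PWK (log2 fold change 8.51 ± 0.44, adjusted p = 1.63e-23). Cyp2c38, a cytochrome P450, had 52.5 to 177 CPM in B6 (median 102) and 0.0787 to 0.985 CPM in PWK (median 0.273). Cyp2c39, of the same family and looked at after its values were seen, was lower in B6. It had 8.41 ± 3.34 CPM in B6 and 88.7 ± 88.7 CPM in PWK (adjusted p = 0.0107). The part of read sharing between these 2 genes was not tested. Of the 8 strains, PWK had the lowest Cyp2c38 level. Gstm3, a glutathione transferase, had 14.2 to 44.0 CPM in B6, and 1.02 CPM in PWK 9 against at most 0.0778 CPM in the other PWK libraries. Its log2 fold change of 7.20 ± 0.83 (adjusted p = 1.61e-10) was 9.44 without PWK 9. The neighbouring antiviral TRIM genes Trim12a, Trim12c and Trim5, which lie within chr7:104263386-104353362, were all higher in B6, with means of 9.87, 13.2 and 3.24 CPM in B6 and 0.0776, 0.0581 and 0.978 CPM in PWK. The log2 fold change of Trim12c was 7.83, and 8.46 without PWK 9.

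In the other direction, PWK livers held transcripts that B6 livers nearly lacked. Miox (chr15:89334398-89337015), the enzyme that opens the ring of myo-inositol and is best known from kidney, had 0 to 0.538 CPM in B6 (median 0.0292) and 32.1 to 41.8 CPM in PWK (median 37.0). The log2 fold change was -8.38 ± 0.53 (adjusted p = 6.22e-20), or -10.20 without B6 2, which held the 0.538 CPM. PWK had the highest mean of all 8 strains for Miox. Tmc5, a transmembrane channel-like protein, had 0 to 0.538 CPM in B6 (median 0.0410) and 15.1 to 80.8 CPM in PWK (median 43.9), with no overlap. Its log2 fold change was -8.53 ± 0.85, or -9.92 without B6 2. Akr1c18, an aldo-keto reductase that inactivates progesterone, had 0.0351 to 1.32 CPM in B6 and 87.7 to 123 CPM in PWK (log2 fold change -8.24 ± 0.63, adjusted p = 2.05e-16, and -9.19 without B6 2). The carboxylesterase Ces2h stood at 0.426 ± 0.398 CPM in B6 and 79.8 ± 13 CPM in PWK (log2 fold change -7.51, and -8.14 without B6 2). E2f7, a repressor of cell-cycle genes linked to hepatocyte polyploidy, had 0.386 to 1.97 CPM in B6 (median 0.616) and 87.3 to 150 CPM in PWK (median 121), the highest of the 8 strains. Ren1, the gene of renin, had 0 to 0.0948 CPM in B6 and 2.85 to 8.17 CPM in PWK.

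Lipid droplet genes were among the clearest differences. Of 21 tested members, 11 were higher and 2 lower in B6, with a median log2 fold change of 0.68, against 23% higher, 20.1% lower and a median of 0.02 over all tested genes. Pparg (chr6:115360951-115490399), the fat-storage receptor of adipocytes that is also switched on in fatty liver, had 5.11 to 21.4 CPM in B6 (median 9.06) and 0 to 0.537 CPM in PWK (median 0.181). Every B6 library lay above every PWK library, and the log2 fold change was 5.64 ± 0.49 (adjusted p = 2.61e-14). PWK had the lowest Pparg mean of the 8 strains and B6 the second highest.

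Other members of the list were higher as well, and 8 of the 21 were not called. Fitm1, which helps lipid droplets bud, had 1.90 to 30.7 CPM in B6 (median 5.83) and 0 to 0.987 CPM in PWK (median 0.544). Vldlr, the receptor of very-low-density lipoprotein, had 2.14 to 34.3 CPM in B6 (median 15) and 0.0996 to 1.79 CPM in PWK (median 0.528). Mogat1, a monoacylglycerol acyltransferase, had 0.239 to 6.45 CPM in B6 and 0 to 0.238 CPM in PWK, so that the lowest B6 and the highest PWK library nearly met. The log2 fold changes were 4.70 ± 0.70 for Fitm1, 4.63 ± 0.77 for Vldlr and 4.32 ± 0.72 for Mogat1, with adjusted p-values of 1.57e-07, 1.66e-06 and 1.88e-06. Among members named after their values were seen, the droplet protein gene Cidec had 11.3 ± 15.5 CPM in B6 and 0.520 ± 0.192 CPM in PWK (adjusted p = 8.48e-06). Its log2 fold change of 4.42 was 3.57 without B6 6. Plin2, the main coat protein of liver droplets, had 533 ± 196 CPM in B6 and 266 ± 95.5 CPM in PWK (adjusted p = 9.33e-04). G0s2, an inhibitor of the fat-splitting enzyme Pnpla2, had 92.1 ± 43.2 and 16.7 ± 6.15 CPM (adjusted p = 1.73e-05).

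The 2 members lower in B6 were Abhd5, the activator of Pnpla2, and Fabp4, a fatty acid carrier of adipocytes and endothelium. Abhd5 had 22.1 ± 3.56 CPM in B6 and 32.2 ± 6.81 CPM in PWK, with overlapping libraries. Fabp4 had 9.18 ± 2.80 CPM in B6 and 15.1 ± 1.87 CPM in PWK (adjusted p = 0.00248). Adipose tissue carried along with liver was looked for with 3 tested markers, of which Cfd was higher (0 to 17.6 CPM in B6 with a median of 0.0948, and 0 to 0.465 CPM in PWK), Fabp4 was lower and Car3 did not pass the test. The part of such tissue in the droplet genes was not tested.

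Fatty acid synthesis did not follow the droplet genes. Of 29 members, 3 were higher and 4 lower in B6 (24.1% called), with a median log2 fold change of -0.20. Fads2, a desaturase of polyunsaturated fatty acids, was higher (650 ± 156 CPM in B6, 335 ± 146 CPM in PWK, adjusted p = 0.00836). Pnpla3, a droplet lipase whose human form carries the best-known fatty liver variant, was lower, with 4.13 to 22.2 CPM in B6 (median 11.6) and 4.28 to 174 CPM in PWK (median 47.5). These groups overlapped, and the log2 fold change was -2.41 ± 0.84 (adjusted p = 0.0162). Lpin1, a phosphatidate phosphatase of triglyceride synthesis, was also lower (159 ± 89.4 CPM in B6, 394 ± 205 CPM in PWK, adjusted p = 0.00738). Of 25 genes of cholesterol synthesis, 2 were higher and 0 lower in B6 (8% called, against 43.2% of all tested genes), and 1 was higher without any of 8 single libraries. Hmgcs1, the cytosolic synthase of the pathway, had 305 ± 199 CPM in B6 and 135 ± 69.7 CPM in PWK (adjusted p = 0.00597).

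Fatty acid oxidation leaned to B6 as a list. Of 37 members, 18 were higher and 0 lower (48.6% called, against 43.2% of all tested genes), with a median log2 fold change of 0.63. Cyp4a14, a fatty acid omega-hydroxylase and a classical PPARα target (chr4:115486200-115496142), had 396 to 1474 CPM in B6 (median 589) and 0.0664 to 9.98 CPM in PWK (median 4.25). The log2 fold change was 7.25 ± 1.34 (adjusted p = 1.24e-05), and PWK was the lowest of the 8 strains. Cpt1a, the gate of mitochondrial fatty acid import, had 462 to 787 CPM in B6 (median 581) and 238 to 478 CPM in PWK (median 293), so that only the extremes overlapped. Ucp2, a mitochondrial carrier, had 25.1 to 54.9 CPM in B6 and 5.41 to 10.2 CPM in PWK (log2 fold change 2.37 ± 0.25, adjusted p = 1.77e-11). Ech1, an isomerase of beta-oxidation, had 224 ± 33.5 CPM in B6 and 120 ± 17.9 CPM in PWK. Ppara itself, named after its values were seen, had 199 ± 48.9 CPM in B6 and 111 ± 20.7 CPM in PWK (adjusted p = 2.46e-04).

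Of 39 nuclear genes of oxidative phosphorylation, 2 were higher and 14 lower in B6, with small changes (median log2 fold change -0.15). The share called was 41.0%, against 43.2% of all tested genes. Of the 2 higher, 1 was left without most single libraries, and 4 were higher without B6 1. Cox5b, a subunit of cytochrome c oxidase, had 63.2 ± 8.28 CPM in B6 and 101 ± 11 CPM in PWK, and Ndufs3, a subunit of complex I, had 72.6 ± 8.14 and 103 ± 10.3 CPM. The sum of Cox5b with its near-identical partner Gm11273 was 80.7 CPM in B6 and 102 CPM in PWK. The log2 fold change of this sum was -0.34 ± 0.08 (adjusted p = 5.02e-04), against -0.68 for Cox5b alone. Genes of the mitochondrial ribosome were likewise more often lower, with 29 lower and 10 higher of 78, and a median of -0.10. The share called was 50%, against 43.2% of all tested genes.

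**Figure D4:**
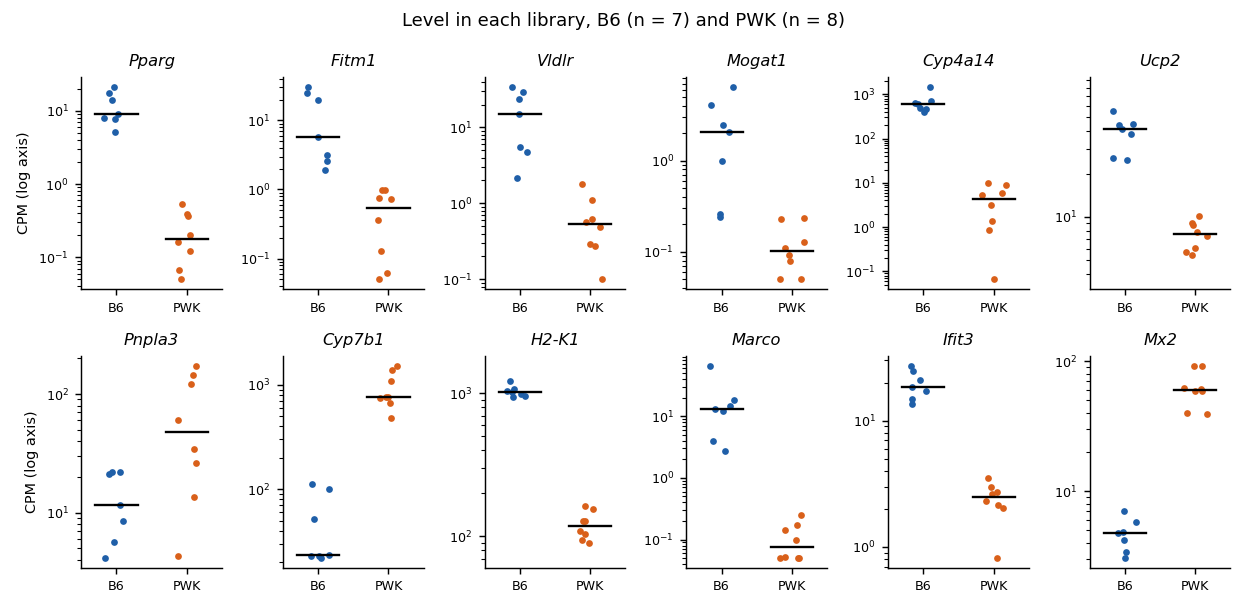
Level in each library (CPM, log axis) of 12 genes, B6 (blue, left, n = 7) and PWK (orange, right, n = 8), with black lines at the medians and values below 0.05 CPM drawn at 0.05. The strains do not overlap for any of these genes except Pnpla3, and Pnpla3, Cyp7b1 and Mx2 are the 3 that are lower in B6.

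In bile acid metabolism, 6 of 25 genes were higher and 4 lower in B6 (40% called), a share near that of all tested genes. Cyp7b1, the oxysterol hydroxylase of the alternative pathway, had 21.9 to 112 CPM in B6 (median 23.6) and 480 to 1529 CPM in PWK (median 768), without overlap (log2 fold change -4.19 ± 0.83, adjusted p = 3.71e-05). Cyp7a1, the rate-limiting enzyme of the classical pathway, had 73.7 ± 43.0 CPM in B6 and 63.0 ± 32.4 CPM in PWK and did not pass the test (adjusted p = 0.749). Cyp2c70, which makes muricholic acids in mice, had 372 ± 182 CPM in B6 and 1027 ± 412 CPM in PWK (adjusted p = 1.56e-05). Abcc3, an exporter of conjugated bile acids to blood, was higher, with 236 to 421 CPM in B6 (median 317) and 29.6 to 123 CPM in PWK (median 74.3). The FGF receptor Fgfr4 was lower (35.6 ± 5.68 CPM in B6, 58.3 ± 4.73 CPM in PWK) and its co-receptor Klb higher (45.2 ± 9.23 and 27.0 ± 8.50 CPM). Outside the list, Cyp46a1, which hydroxylates cholesterol and is best known from brain, had 1.58 to 6.07 CPM in B6 and 28.1 to 230 CPM in PWK (log2 fold change -4.93 ± 0.60, adjusted p = 1.00e-09).

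Of 80 tested cytochrome P450 genes, 21 were higher and 14 lower in B6 (43.8% called), which lay near the background of 43.2% of all tested genes. Of 20 glutathione transferase genes 8 were higher and 6 lower (70% called). Cyp4f14, an omega-hydroxylase of leukotrienes and vitamin K, had 128 to 230 CPM in B6 and 6.33 to 12.3 CPM in PWK (log2 fold change 4.59 ± 0.35, adjusted p = 1.16e-16). Cyp2c44, an epoxygenase of arachidonic acid, was lower (183 ± 74.1 CPM in B6, 464 ± 51.4 CPM in PWK). Within the mu-class cluster, Gstm1, Gstm2 and Gstm3 were higher in B6, with means of 737, 48.0 and 22.5 CPM in B6 and 240, 2.24 and 0.150 CPM in PWK. Gstm7 was lower, at 41.1 ± 8.73 CPM in B6 and 89.4 ± 16 CPM in PWK, and so was the peroxisomal Gstk1 (76.28 ± 10.05 and 203 ± 28.4 CPM). Among conjugating enzymes, Ugt3a2 was higher (326 ± 38.4 CPM in B6, 36.9 ± 11.9 CPM in PWK) and the sulfotransferase Sult5a1 lower (7.41 ± 3.19 and 106 ± 20.6 CPM). The carboxylesterases Ces1g (205 ± 21.1 CPM in B6, 13.6 ± 14.2 CPM in PWK) and Ces2a (120 ± 29.1 and 11.9 ± 4.24 CPM), which split lipid and drug esters, were higher in B6. Without PWK 5, which held 48.1 CPM, the log2 fold change of Ces1g was 4.55 in place of 3.91. Members of these families are often similar in sequence, so single values are less certain than those of unique genes.

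Among secreted proteins, Itih3, a heavy chain of the inter-alpha-trypsin inhibitors, had 545 to 1072 CPM in B6 (median 787) and 1845 to 2682 CPM in PWK (median 2069), and B6 was the lowest and PWK the highest of the 8 strains. Fetub, a protease inhibitor of the fetuin family, followed the same order, with 234 to 345 CPM in B6 and 827 to 1277 CPM in PWK (log2 fold change -1.84 ± 0.18, adjusted p = 9.94e-13). Orm1, an acute-phase carrier protein, was higher, with 301 to 412 CPM in B6 and 3.04 to 146 CPM in PWK. Its log2 fold change of 3.64 ± 0.64 (adjusted p = 4.87e-06) was 4.96 without PWK 4, which held the 146 CPM. Of 27 acute-phase genes 6 were higher and 6 lower (44.4% called), near the 43.2% of all tested genes, and of 34 genes of complement and coagulation 4 were higher and 6 lower (29.4% called), below it. The coagulation factors F9 (173 ± 21.3 CPM in B6, 244 ± 44.3 CPM in PWK) and F11 (49.6 ± 10.1 and 93.9 ± 12.6 CPM) were lower, and F5 (967 ± 88.5 and 673 ± 40.7 CPM) was higher in B6. Of the antitrypsin genes, Serpina1c had 3166 to 6229 CPM in B6 and 2.07 to 174 CPM in PWK (log2 fold change 7.0, and 8.48 without PWK 9), but these genes are near-identical. Summed over the 6 linked rows the level was 14513 CPM in B6 and 18860 CPM in PWK (adjusted p = 0.195).

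Genes of antigen presentation were higher in B6 throughout most of the class I list. Of 20 tested members, 15 were higher and 3 lower in B6, with a median log2 fold change of 1.24. The share called was 90%, against 43.2% of all tested genes. Many members are polymorphic heavy chains, and the sequence to which PWK reads were aligned is not given. The part of read alignment in their values was not tested. H2-K1, a classical class I heavy chain that shows peptides to T cells, had 948 to 1216 CPM in B6 (median 1027) and 90.7 to 164 CPM in PWK (median 119). B6 was the highest and PWK the lowest of the 8 strains (log2 fold change 3.09 ± 0.14, adjusted p = 9.69e-26). H2-D1, the other classical heavy chain, had 471 ± 48.1 CPM in B6 and 111 ± 20.1 CPM in PWK. H2-Q10, a secreted class I protein made by liver, had 1287 to 2283 CPM in B6 and 290 to 615 CPM in PWK. Genes outside the polymorphic heavy chains were higher too, such as B2m, the invariant light chain (956 ± 62.1 CPM in B6, 673 ± 53.4 CPM in PWK), the peptide transporter Tap1 (33.4 ± 5.44 and 11.97 ± 2.63 CPM) and the activator Nlrc5 (27.8 ± 2.86 and 14.4 ± 3.22 CPM), all 3 named after their values were seen. Psmb9, a subunit of the immunoproteasome, had 13.5 ± 3.10 CPM in B6 and 5.67 ± 1.69 CPM in PWK. Tapbp, also outside the heavy chains, did not pass the test (log2 fold change 0.31 ± 0.15, adjusted p = 0.0870). The 3 lower members were Tap2 (25.2 ± 5.16 CPM in B6, 33.7 ± 6.61 CPM in PWK), H2-T24 and H2-T10, but the sum of H2-T10 with its near-identical partner H2-T22 was higher in B6 (log2 fold change 1.76). Class II was mixed, with 3 of 9 higher and 0 lower (33.3% called). H2-Eb1 had 19.2 to 53.4 CPM in B6 and 0.585 to 1.57 CPM in PWK, whereas Cd74, the invariant chain, had 102 ± 25.2 CPM in B6 and 104 ± 20.3 CPM in PWK.

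Interferon-response genes differed in both directions. Of 41 members, 15 were higher and 5 lower in B6, with a median log2 fold change of 0.41. The share called was 48.8%, against 43.2% of all tested genes. Ifit3, which blocks translation of viral RNA and has the near-identical partner Ifit3b, had 13.4 to 27.2 CPM in B6 (median 18.4) and 0.815 to 3.52 CPM in PWK (median 2.48), without overlap (log2 fold change 3.02 ± 0.35, adjusted p = 1.67e-10). The sum of Ifit3 and Ifit3b was 24.9 CPM in B6 and 6.19 CPM in PWK, with a log2 fold change of 2.01 ± 0.35 (adjusted p = 4.16e-06). The ubiquitin-like modifier Isg15 had 3.58 to 9.43 CPM in B6 and 0.441 to 2.15 CPM in PWK. Mx2, a dynamin-like antiviral GTPase, ran the other way, with 3.05 to 7.06 CPM in B6 (median 4.79) and 39.5 to 92.5 CPM in PWK (median 60.2). Its log2 fold change was -3.74 ± 0.39 (adjusted p = 6.70e-12). Mx1 (1.75 ± 0.629 CPM in B6, 5.14 ± 1.71 CPM in PWK), Xaf1 (6.88 ± 2.22 and 19.6 ± 5.01 CPM) and Lgals3bp (90.8 ± 11.2 and 359 ± 69.8 CPM) were also lower in B6. The transcription factor Irf7, named after its values were seen, had 35.3 ± 4.81 CPM in B6 and 37.7 ± 12.5 CPM in PWK and did not pass the test (adjusted p = 0.812).

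Promoters of 4 of these genes are shown because their members moved in opposite directions. Each is a 300-base window that ends shortly after the gene start, read 5′ to 3′ on the gene's strand (RefSeq, GRCm38.p6), with matches to the interferon-stimulated response motif (GAAA, any pair of bases, GAAA) on either strand in capitals, overlapping matches included. The windows are Ifit3 (chr19:34583279-34583578, plus strand), Isg15 (chr4:156200769-156201068, minus), Rsad2 (chr12:26456403-26456702, minus) and Xaf1 (chr11:72301379-72301678, plus).
Ifit3: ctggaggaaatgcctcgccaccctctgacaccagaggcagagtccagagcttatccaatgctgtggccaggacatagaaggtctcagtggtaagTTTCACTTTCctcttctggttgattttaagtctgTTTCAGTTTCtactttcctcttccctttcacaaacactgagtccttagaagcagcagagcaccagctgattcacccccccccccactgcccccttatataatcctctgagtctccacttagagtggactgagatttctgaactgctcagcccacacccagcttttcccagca
Isg15: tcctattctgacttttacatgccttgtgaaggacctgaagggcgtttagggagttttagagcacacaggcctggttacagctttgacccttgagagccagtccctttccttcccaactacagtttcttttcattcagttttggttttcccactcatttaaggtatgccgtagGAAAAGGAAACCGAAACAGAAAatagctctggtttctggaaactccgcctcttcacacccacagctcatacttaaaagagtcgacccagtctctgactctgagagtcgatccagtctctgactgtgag
Rsad2: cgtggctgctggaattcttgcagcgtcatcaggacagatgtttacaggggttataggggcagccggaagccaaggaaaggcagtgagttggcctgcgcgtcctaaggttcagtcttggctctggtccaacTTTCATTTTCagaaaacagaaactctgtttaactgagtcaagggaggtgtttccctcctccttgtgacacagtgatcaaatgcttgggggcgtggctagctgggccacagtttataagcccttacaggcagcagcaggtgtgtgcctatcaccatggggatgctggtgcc
Xaf1: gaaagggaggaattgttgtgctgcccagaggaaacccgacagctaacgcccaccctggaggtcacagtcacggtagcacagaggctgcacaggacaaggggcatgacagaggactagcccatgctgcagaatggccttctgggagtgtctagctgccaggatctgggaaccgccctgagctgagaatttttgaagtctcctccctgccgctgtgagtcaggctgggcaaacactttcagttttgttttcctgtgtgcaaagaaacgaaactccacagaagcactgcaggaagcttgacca
The windows of Ifit3, Isg15 and Rsad2, all higher in B6, held 2, 3 overlapping and 1 matches, and that of Xaf1, lower in B6, held none. Over the list, 14 of 29 tested genes with a window (48.3%) held a match, against 3.44% of all 32851 windows and 3.83% of tested genes. Of those higher in B6 4 of 9 held a match, and of those lower 1 of 3 (Stat2, picked out here after its values were seen). A match describes letters in the reference sequence, which is that of B6, and is no evidence of binding. Rsad2, an antiviral enzyme named after its values were seen, had 16.7 ± 4.73 CPM in B6 and 8.18 ± 2.63 CPM in PWK (adjusted p = 0.0164).

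Interferon-inducible GTPases of the GBP and IRG families, which attack vacuoles of intracellular parasites, counted 10 higher and 1 lower of 19. The share called was 57.9%, against 43.2% of all tested genes. Gbp2b had 2.39 to 8.47 CPM in B6 and 0.0731 to 0.524 CPM in PWK, and Gvin1 had 20.9 to 89.1 CPM in B6 and 2.38 to 8.52 CPM in PWK. Gvin1 had a log2 fold change of 3.07, against 1.80 for the sum of its 3 near-identical rows (67.0 CPM in B6 and 19.2 CPM in PWK). Gbp10 had 10.8 to 53.1 CPM in B6 and 0.146 to 0.678 CPM in PWK. It overlaps a gene named Gbp6 and has a near-identical partner, with which its sum was 61.4 CPM in B6 and 17.4 CPM in PWK (log2 fold change 1.82, adjusted p = 1.81e-04). Irgm1, a regulator of the IRG system, was the lower one (55.6 ± 10.5 CPM in B6, 81.3 ± 17.6 CPM in PWK, adjusted p = 0.0129).

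Markers of resident macrophages were higher in B6. Of 18 Kupffer cell markers 14 were higher and 0 lower (77.8% called, against 43.2% of all tested genes), with a median log2 fold change of 1.04. Their summed level was 701 to 1436 CPM in B6 (median 1146) and 527 to 1002 CPM in PWK (median 711). Csf1r, the macrophage growth factor receptor, had 57.6 to 137 CPM in B6 (median 106) and 20 to 42.6 CPM in PWK (median 27.3). Adgre1, which encodes the antigen F4/80, had 17.1 to 53.5 CPM in B6 and 4.24 to 15.8 CPM in PWK. Neither gene's groups overlapped, with log2 fold changes of 1.78 ± 0.24 and 2.08 ± 0.31 (adjusted p = 2.17e-08 and 1.36e-07). Marco, a scavenger receptor (chr1:120474538-120505024), had 2.77 to 66.0 CPM in B6 (median 13.1) and 0 to 0.247 CPM in PWK (median 0.0757). Its log2 fold change of 7.62 ± 1.22 (adjusted p = 7.72e-07) was 6.82 without B6 4, which held the 66.0 CPM. Clec4f, a lectin specific to Kupffer cells and named after its values were seen, had 130 ± 34.8 CPM in B6 and 111 ± 31.5 CPM in PWK and did not pass the test (adjusted p = 0.488). In bulk tissue, a change in the number of cells of a type and a change in RNA per cell cannot be told apart.

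Markers of other non-parenchymal cells varied by type. The share called was 66.7% for lipid-associated macrophage, 52.4% for lymphocyte and 35.7% for endothelial markers, against 43.2% of all tested genes. Of 12 markers of lipid-associated macrophages 8 were higher and 0 lower (5 higher without B6 6, and 1 lower without any of 5 other libraries), among them Trem2 (0.859 ± 0.507 CPM in B6, 0.0639 ± 0.0898 CPM in PWK) and Clec7a (9.90 ± 3.97 and 1.27 ± 0.629 CPM). The log2 fold change of Trem2 was 3.65, and 4.28 without PWK 7. Of 21 lymphocyte markers 11 were higher and 0 lower (7 higher without B6 1). Their summed level was 36.8 to 72.8 CPM in B6 and 16.8 to 39.3 CPM in PWK. That sum rested mainly on Ptprc (26.0 ± 9.64 CPM in B6, 13.2 ± 3.42 CPM in PWK) and Ighm (17.8 ± 9.34 and 8.13 ± 4.42 CPM, not called). No other member had a mean above 1.62 CPM in either strain. The log2 fold change was above 0 for 19 of the 21, and Cd4 and Cd8a, with means lower in B6, were not called. Of 14 endothelial markers 1 was higher and 4 lower, including Lyve1, the hyaluronan receptor of sinusoids, with 7.53 to 13.4 CPM in B6 and 24.4 to 37.4 CPM in PWK (log2 fold change -1.54 ± 0.24, adjusted p = 2.99e-07). Whether immune cell content bears on the class I, GTPase and interferon values above was not tested.

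Matrix genes of hepatic stellate cells also leaned to B6, with 10 of 22 markers higher and 0 lower and a median of 0.50 (1 lower without PWK 3, PWK 4, B6 2 or B6 3). The share called was 45.5%, against 43.2% of all tested genes. Decorin, Dcn, had 117 to 147 CPM in B6 (median 133) and 58.8 to 83.2 CPM in PWK (median 72.7), and Col1a2, a chain of type I collagen, had 18.7 to 34.3 and 2.95 to 9.03 CPM. Dcn and Col1a2 were each highest in B6 and lowest in PWK among the 8 strains. Across 35 collagen-named genes the direction was mixed, with 12 higher and 9 lower (60% called). Col5a2, a minor fibrillar chain, went strongly the other way, with 3.23 to 23.4 CPM in B6 (median 7.09) and 46.6 to 597 CPM in PWK (median 291, log2 fold change -5.16 ± 0.50, adjusted p = 7.56e-13). Of 8 markers of bile duct cells 5 were higher and 0 lower (62.5% called). Among them was the keratin gene Krt19, at 0.998 ± 0.342 CPM in B6 and 0.392 ± 0.137 CPM in PWK. Muscle markers gave no calls in 7 tested, with sums of 6.71 to 172 CPM in B6 and 0.247 to 313 CPM in PWK.

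**Figure D5:**
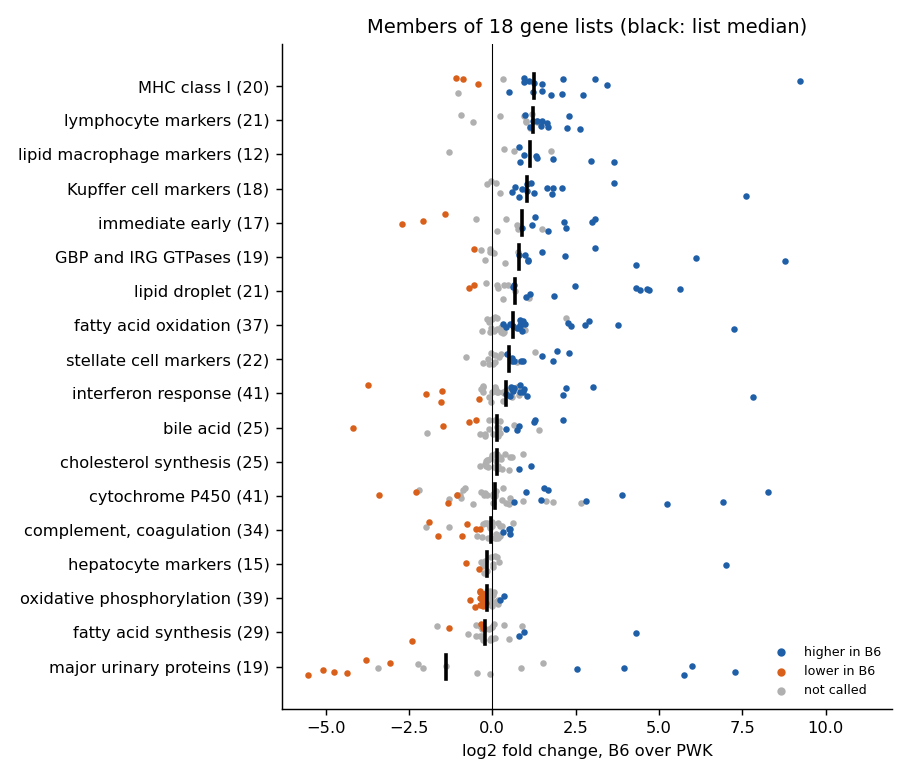
Log2 fold change of B6 over PWK (horizontal axis) for each tested member of 18 gene lists, with the number tested in brackets, blue where higher and orange where lower in B6 at an adjusted p below 0.05, and a black bar at the list median. The medians run from 1.24 for MHC class I to -1.40 for the major urinary proteins, and the Kupffer, lymphocyte, lipid macrophage, stellate and fatty acid oxidation lists hold no gene called lower.

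Immediate early genes, which respond within minutes to stress and hormones, were higher for 8 and lower for 3 of 17 members. The share called was 64.7%, against 43.2% of all tested genes. Btg2, an antiproliferative gene, had 49.6 to 166 CPM in B6 and 9.88 to 33.6 CPM in PWK, and Fosb had 1.46 to 43.3 and 0.183 to 5.37 CPM. The heat shock genes Hspa1a (2.21 ± 1.05 CPM in B6, 14.6 ± 10.2 CPM in PWK) and Hspa1b (15.9 ± 2.84 and 67.2 ± 50.7 CPM) were lower, and so was the sum of this near-identical pair (log2 fold change -2.19). These genes are sensitive to how and when tissue is taken, which the labels do not give.

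Genes with sex-biased expression in mouse liver need the Xist values beside them. Of 21 female-biased genes 2 were higher and 0 lower in B6 (9.52% called). Of 20 male-biased genes 1 was higher and 5 lower (30% called, against 43.2% of all tested genes), with a median log2 fold change of -1.81. With Xist as a covariate these counts were 7 higher and 5 lower for the female-biased genes, and 14 lower for the male-biased genes. Single libraries moved them too. The 5 male-biased genes lower in B6 became 3 without PWK 4, PWK 5, B6 1, B6 2, B6 3 or B6 4, and 9 without B6 7. The 2 female-biased genes higher in B6 became 1 without any of 10 single libraries. Xist itself averaged 565 ± 533 CPM in B6 and 515 ± 562 CPM in PWK and did not differ in the test (log2 fold change 0.13 ± 1.71, adjusted p = 0.959). Mup3, a major urinary protein that carries pheromones, was higher, with 939 to 5372 CPM in B6 (median 1669) and 13.8 to 145 CPM in PWK (median 30.8). PWK had the lowest Mup3 of the 8 strains. Over the 19 tested Mup genes, 5 were higher and 6 lower in B6 (57.9% called). The sum of 15 near-identical Mup rows was 4382 CPM in B6 and 24356 CPM in PWK (log2 fold change -2.47 ± 1.03, adjusted p = 0.0470). Igf1, the growth factor that mediates much of the action of growth hormone, was lower, with 262 to 598 CPM in B6 (median 437) and 489 to 1062 CPM in PWK (median 679, adjusted p = 5.32e-04), and B6 was the lowest and PWK the highest of the 8 strains.

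Glucose and amino acid metabolism changed in single genes. Pfkl, the liver phosphofructokinase of glycolysis, had 28.6 to 34.8 CPM in B6 and 72.0 to 89.4 CPM in PWK (log2 fold change -1.29 ± 0.11, adjusted p = 2.60e-15), again with B6 lowest and PWK highest of the 8 strains. Insr, the insulin receptor, was higher (211 ± 20.6 CPM in B6, 142 ± 17.3 CPM in PWK, adjusted p = 3.99e-09). Of 24 glucose genes 4 were higher and 4 lower (33.3% called, against 43.2% of all tested genes). Bhmt, which remethylates homocysteine, had 1922 to 4728 CPM in B6 and 636 to 1800 CPM in PWK (log2 fold change 1.14 for the sum of its 3 near-identical rows), and the aminotransferase Oat had 994 ± 193 and 300 ± 108 CPM. Cps1, the entry enzyme of the urea cycle, was lower (3904 ± 1622 CPM in B6, 6747 ± 999 CPM in PWK, adjusted p = 8.49e-04).

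Of 39 genes picked for known variation among mouse strains, 13 were higher and 9 lower in B6 (56.4% called, against 43.2% of all tested genes). Nnt, the mitochondrial transhydrogenase that carries a known deletion in C57BL/6J, had 52.8 to 65.2 CPM in B6 (median 59.5) and 80.7 to 142 CPM in PWK (median 128), without overlap (log2 fold change -1.05 ± 0.19, adjusted p = 6.20e-06). Ifi202b, an interferon-inducible gene that C57BL/6J is known to express weakly, had 0 to 0.0584 CPM in B6 and 1.63 to 5.24 CPM in PWK. Raet1d, a ligand of the natural killer receptor NKG2D, had 7.30 to 34.7 CPM in B6 and 0 to 0.408 CPM in PWK. The inflammasome gene Naip1 had 0.667 to 2.17 and 0 to 0.259 CPM. Hc, complement component C5, had 918 ± 49.1 CPM in B6 and 926 ± 163 CPM in PWK and did not pass the test (log2 fold change -0.01 ± 0.16, adjusted p = 0.962). Ceacam2 had 0.345 ± 0.306 CPM in B6 and 49.0 ± 5.22 CPM in PWK, while its near-identical partner Ceacam1 had 203 ± 24.5 and 214 ± 21.4 CPM. Their sum was 201 CPM in B6 and 264 CPM in PWK (log2 fold change -0.39 ± 0.11, adjusted p = 0.00304).

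The 344 tested zinc finger genes of the Zfp family gave 61 higher and 72 lower (38.7% called, against 43.2% of all tested genes). Zfp949 had 4.904 to 7.06 CPM in B6 and 31.0 to 54.8 CPM in PWK (log2 fold change -2.83 ± 0.13, adjusted p = 9.69e-26), with B6 lowest and PWK highest of the 8 strains. Zfp605 had 2.33 to 3.41 CPM in B6 and 0 to 0.0340 CPM in PWK, where a single library, PWK 9, was above 0 (log2 fold change 8.43, and 9.45 without PWK 9). The 280 tested solute carriers gave 60 higher and 52 lower, which lay near the background, with Slc3a1, a subunit of the cystine transporter, at 60.7 ± 20.1 CPM in B6 and 1.86 ± 0.644 CPM in PWK.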

How the data were processed

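The authors deposited a table of estimated counts per gene of polyadenylated liver RNA, 60 libraries of 8 strains. Of its values, 21.0% were not whole, so all were rounded. They also deposited log2 values, a variance-stabilised matrix made with DESeq2 per the submitters' processing notes, which was used as an alternative. The notes name the build GRCm38. The aligner, the counter, its use of strand and the sequence to which PWK reads were aligned are not given by the sources used here. A column without a matching sample was left out (1 column).

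Genes were filtered and scaled (TMM) in edgeR 4.0.16 under R 4.3.3, and 1 quasi-likelihood model of all 60 libraries gave the B6 over PWK contrast, with Benjamini-Hochberg adjustment over all tested genes and a threshold of 0.05. SE was derived as |log2 fold change| over the root of F. Levels are TMM-scaled CPM, as mean ± SD (n = 7 B6 and 8 PWK libraries) or as ranges. CPM is not divided by gene length, so levels were compared between strains and not between genes. Depth was 19.98 to 38.2 M reads. The test was checked on simulated counts. The alternatives used limma 3.58.1, DESeq2 1.42.0, other scalings and filters, and leaving out each library.

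Named genes are, per direction, the 12 largest called folds without overlap of libraries. These were protein-coding genes of at least 5 CPM in the higher strain and over 3 reads in both. Predicted genes, olfactory receptors, Xist, mitochondrial and Y-linked genes were left out of them. Also taken per direction were the 10 largest called differences of mean CPM with at least 2-fold and up to 4 called members of each list by smallest p. Up to 3 genes per direction had at most 3 reads in every library of a strain. The rule adds the tested genes of known strain variation and Xist. Some genes that the rule names are not reported here. Other named genes were chosen after their values were seen. The members and lists were chosen with earlier results of these data known. Every library resembled its own strain best, and every pair within a strain differed by more than sampling noise.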

Additional observations from a re-analysis of the deposited data

Results flagged for a closer look

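The groups of libraries looked at were 266 (each named gene in each strain, without Cyp2c39). Of these, 32 held a library that stood far outside the range of the rest by Dixon's test. Chance alone gives about 1 in 20 groups. Values are CPM.

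PWK 9 stood apart most often, and low for interferon-response genes. It held 0.815 CPM of Ifit3 (2.03 to 3.52 in the other PWK libraries), 0.441 of Isg15 (1.11 to 2.15), 1.70 of Mx1 (4.58 to 7.74), 9 of Xaf1 (17.5 to 25.8), 14.1 of Irf7 (33.3 to 56.4) and 203 of Lgals3bp (358 to 442). It was also low for H2-T24, with 5.16 CPM (9.46 to 12.5). It was high for Oat, with 562 CPM (230 to 307), Gstm7, with 127 CPM (79.7 to 95), Gstm3, with 1.02 CPM (at most 0.0778), mt-Nd4l, with 27.9 CPM (9.67 to 14), and Zfp605, with 0.034 CPM (0 in all others).

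PWK 5 was high for genes of fatty acid oxidation, with 478 CPM of Cpt1a (238 to 325) and 158 CPM of Ppara (92.8 to 116), high for Ces1g, with 48.1 CPM (4.86 to 13.7), and Gbp6, with 0.11 CPM (0 in all others), and low for Fabp4, with 11 CPM (14.1 to 17.3). PWK 4 held 43.5 CPM of Hba-a2 (16.5 to 24.7), 81.9 CPM of Ech1 (114 to 140) and 80.7 CPM of Nnt (118 to 142). PWK 2 held 66.5 CPM of Sult5a1 (100 to 142).

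Among B6 libraries, B6 2 was low for mt-Co2, with 1650 CPM (2150 to 2560), Gm28661, with 1930 CPM (2960 to 3630), mt-Nd4l, with 461 CPM (789 to 879), and Ugt3a2, with 254 CPM (321 to 383). It was high for Miox and Tmc5, each with 0.538 CPM (at most 0.0948 and 0.0876). B6 4 held 1.72 CPM of Krt19 (0.689 to 1.02). B6 6 held 571 CPM of H2-D1 (423 to 477), B6 7 held 80.6 CPM of Pnpla2 (38.8 to 50.4) and 1.69 CPM of H2-T10 (2.66 to 3.07), and B6 8 held 71.1 CPM of H2-T22 (83.5 to 90.0).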

How the results depend on the processing

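The counts of called genes (6978, of them 3724 higher and 3254 lower in B6) stayed, under every alternative run, within 1.5 times of these. Leaving out 1 library at a time gave 6545 to 6932 called genes, 3383 to 3593 higher, 3161 to 3339 lower, and 2636 to 2863 with at least 2-fold. DESeq2 called 7182 genes, no filter 7354, Xist as a covariate 7426 and a threshold of 0.01 5131. Of calls with upper quartile scaling, 56.2% were higher in B6. The 2788 calls of at least 2-fold were 1110 with limma on the deposited log2 values. The cause was not tested. Deviations of same-numbered libraries of the strains had correlations of -0.39 to 0.27 over 6 shared numbers. They were above 0 for numbers 1 and 2, where Xist was high in both strains. They were below 0 for numbers 3, 4, 6 and 7, where Xist was high in 1 strain only. The check therefore cannot tell whether the numbers pair the libraries. With the replicate block 6877 genes were called, 2742 with at least 2-fold, and the log2 fold change of Xist was -6.23 in place of 0.13.

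Summing near-identical rows, an alternative chosen after the data were seen, called 6751 of 15649 units. It turned the direction of the log2 fold change of Rpl19-ps11 (-0.0503), Rpl27-ps3 (-0.0230), Rpl17 (0.0692), Gm28661 (0.28), Gm10222 (0.13), Hba-a2 (-0.51), Serpina1c (-0.38), H2-T10 (1.76) and Mup15 (-2.47). The 123 called genes among the 134 tested and named here, without Cyp2c39, kept call and direction in all 15 leave-outs. Values near 0 CPM rest on few reads, and their folds depend on depth.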
